A study of Mus musculus with 12 samples.

Results

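The genes described here are the vascular endothelial growth factor (VEGF) ligands and receptors, chosen by symbol: the ligand genes Vegfa, Vegfb and Vegfc, the receptor tyrosine kinase genes Kdr, Flt1 and Flt4, and the co-receptor genes Nrp1 and Nrp2. All 8 were found among 16239 named genes, all 8 were listed in every one of 12 mouse liver libraries, and all 8 passed the filter on low counts. The mice (strain 129/B6, 10 months old) carried either a floxed TSP1 gene or a knockout of TSP1 specific to macrophages, and each genotype was kept for 8 months on an LF or an HF diet. Diet and genotype name the 4 groups of 3 libraries (LF floxed and LF knockout, HF floxed and HF knockout). The labels list the floxed mice as WT and name neither the Cre driver nor single animals. A p-value here therefore reflects library-to-library spread, part of which may be technical. The study concerned TSP1 from macrophages in the fatty liver disease of obesity.

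VEGF-A is the main ligand that makes blood vessels grow and persist; it acts on the kinase VEGFR2 (Kdr) of endothelial cells, while VEGFR1 (Flt1) binds it tightly and also serves as a decoy. VEGF-B binds Flt1, VEGF-C acts on VEGFR3 (Flt4) in lymphatic and some other endothelia, and the neuropilins bind several of these ligands as well as class 3 semaphorins. In liver, hepatocytes are a main source of VEGF-A, and the sinusoidal endothelial cells carry the kinases. TSP1 is known as a secreted inhibitor of vessel growth that binds CD36 and CD47 and can bind VEGF-A.

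The 5 promoters shown are those of the genes whose levels the results turn on: the ligands that differed most between diets in floxed livers and the 3 kinases that varied together over the libraries. Each is the 250 bases before the annotated start, taken from RefSeq on GRCm38.p6, which is another build than the mm9 named in the submitters' processing notes, and capitals mark the GC box GGGCGG or its reverse complement CCGCCC.
Vegfa, chr17:46032378-46032627, minus strand: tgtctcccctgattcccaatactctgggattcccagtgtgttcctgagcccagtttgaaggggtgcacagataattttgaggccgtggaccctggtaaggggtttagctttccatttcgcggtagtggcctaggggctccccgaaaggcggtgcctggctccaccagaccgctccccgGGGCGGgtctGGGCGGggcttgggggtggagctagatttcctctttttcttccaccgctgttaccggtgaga
Vegfc, chr8:54077282-54077531, plus strand: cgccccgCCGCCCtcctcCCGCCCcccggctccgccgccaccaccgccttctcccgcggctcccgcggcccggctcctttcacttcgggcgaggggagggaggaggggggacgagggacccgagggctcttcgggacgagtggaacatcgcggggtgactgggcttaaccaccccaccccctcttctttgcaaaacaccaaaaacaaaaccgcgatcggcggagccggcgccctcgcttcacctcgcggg
Kdr, chr5:75978456-75978705, minus strand: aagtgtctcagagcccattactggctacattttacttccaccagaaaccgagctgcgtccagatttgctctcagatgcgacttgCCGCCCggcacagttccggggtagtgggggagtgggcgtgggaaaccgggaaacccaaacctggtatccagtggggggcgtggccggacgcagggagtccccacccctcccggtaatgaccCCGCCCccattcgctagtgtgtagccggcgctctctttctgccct
Flt1, chr5:147726012-147726261, minus strand: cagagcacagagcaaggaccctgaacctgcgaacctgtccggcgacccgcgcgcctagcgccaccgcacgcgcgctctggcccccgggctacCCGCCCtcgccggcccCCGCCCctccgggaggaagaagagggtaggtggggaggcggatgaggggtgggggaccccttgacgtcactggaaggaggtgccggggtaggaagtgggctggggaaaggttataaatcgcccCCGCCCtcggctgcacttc
Flt4, chr11:49609429-49609678, plus strand: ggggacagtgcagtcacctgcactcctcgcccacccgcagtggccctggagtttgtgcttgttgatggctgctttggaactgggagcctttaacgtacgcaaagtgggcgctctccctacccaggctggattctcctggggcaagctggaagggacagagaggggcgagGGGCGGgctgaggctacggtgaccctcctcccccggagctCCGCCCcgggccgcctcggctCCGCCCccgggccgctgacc
At least 1 GC box lay in this window for 8 of the 8 genes (from 1 in Nrp1 to 5 in Nrp2; 2 in the Vegfa window shown), against 32.7% of 32851 promoter windows of the same length. GC content of the windows shown was 59.2% for Vegfa, 71.6% for Vegfc, 61.6% for Kdr, 70.4% for Flt1 and 68.4% for Flt4, against a median of 52.4% over all windows. The core of the hypoxia response element, ACGTG or CACGT, was in 16.6% of all windows in none of the 5 shown and once in the window of a second annotated Vegfa start; it overlaps the E-box CACGTG. The ETS core GGAA or TTCC occurred 4 times in the Kdr window, 4 in Flt1 and 2 in Flt4, and 93.4% of all windows hold it. Such matches describe these letters only.

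Libraries held 16131506 to 16536016 estimated counts. The targeted gene Thbs1, which encodes TSP1, was at 0.11, 0.06 and 0.07 FPKM (the authors' fragment unit, scaled by transcript length and library size) in LF floxed replicates 1 to 3 and at 0.08, 0.55 and 0.55 in LF knockout. It was at 0.75, 0.75 and 0.31 in HF floxed and at 0.16, 1.42 and 1.63 in HF knockout. The Thbs1 difference between diets in floxed livers, log2 2.64 (SE 0.84), had an edgeR adjusted p of 0.289, and that between genotypes on LF, log2 2.19 (SE 0.84), an edgeR adjusted p of 0.929. Over the alternatives the first ran from 1.22, with Dbp as a covariate, to 2.94 (adjusted p 0.0499 to 0.934), and the second from 1.43, also with Dbp, to 2.69. Thbs1 was thus not lower in the libraries labelled knockout, which hold RNA of all liver cells, and each direction between genotypes below rests on the labels. A pair of LF knockout libraries (replicates 2 and 3) had a chi-square of counts per degree of freedom of 2.85, and a pair of HF floxed libraries (replicates 1 and 2) had 8.87, against 50.7 to 527.77 for the other pairs within groups. Both pairs, called near-identical below, differed by more than counting noise and were kept as separate libraries. If such a pair came from 1 animal, the p-values that use it are too small. HF knockout replicate 1 had the lowest sum of 25 endothelial markers, 65.3 FPKM, where the other libraries had 102 to 225. In HF knockout replicate 3 the sum of neutrophil markers was 473 FPKM, against at most 12 elsewhere. HF knockout replicate 2 was least like its group, with a Pearson r of log2(FPKM + 1) of 0.8751 with replicate 1 and 0.9012 with replicate 3. Every other pair within groups had at least 0.9608. Unnamed loci held 6.65% of its counts, against 11.58 to 17.33% elsewhere. Correlations between members below were repeated without HF knockout replicate 1 but not without replicate 2. The sum of 12 hepatocyte markers was 43800 to 108000 FPKM, as the labelled tissue implies.

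Per kilobase, the 3 most abundant members were Vegfa at 16.6 ± 4.75 FPKM (SD, n = 12), Vegfb at 16.5 ± 6.57 and Nrp1 at 15.9 ± 4.94. These levels were not ordered among themselves: Vegfa lay above Vegfb in 6 of 12 libraries and Vegfb above Nrp1 in 6. A lower tier held Flt4 at 3.36 ± 1.84 FPKM, Kdr at 3.1 ± 1.39 and Nrp2 at 2.23 ± 0.918, with Flt4 above Kdr in 7 libraries and Kdr above Nrp2 in 9. Vegfc (1.66 ± 0.737 FPKM) lay below Nrp2 in 11 of 12 libraries, and Flt1 (0.723 ± 0.301 FPKM) lay below Vegfc in 11. Counts behind these levels ran from 478 to 1384 for Vegfa but only from 18 to 117 for Flt1 and from 23 to 86 for Vegfc, so the last 2 genes carry the most counting error. Between the highest and lowest library Kdr varied most, 13.3-fold, and Vegfa least, 2.75-fold. The lowest Kdr value, 0.41 FPKM, was that of 1 library, HF knockout replicate 1. By the SD as a percentage of the mean, Flt4 varied most (54.7%, against 44.8% for Kdr) and Vegfa again least (28.6%).

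**Figure D1:**
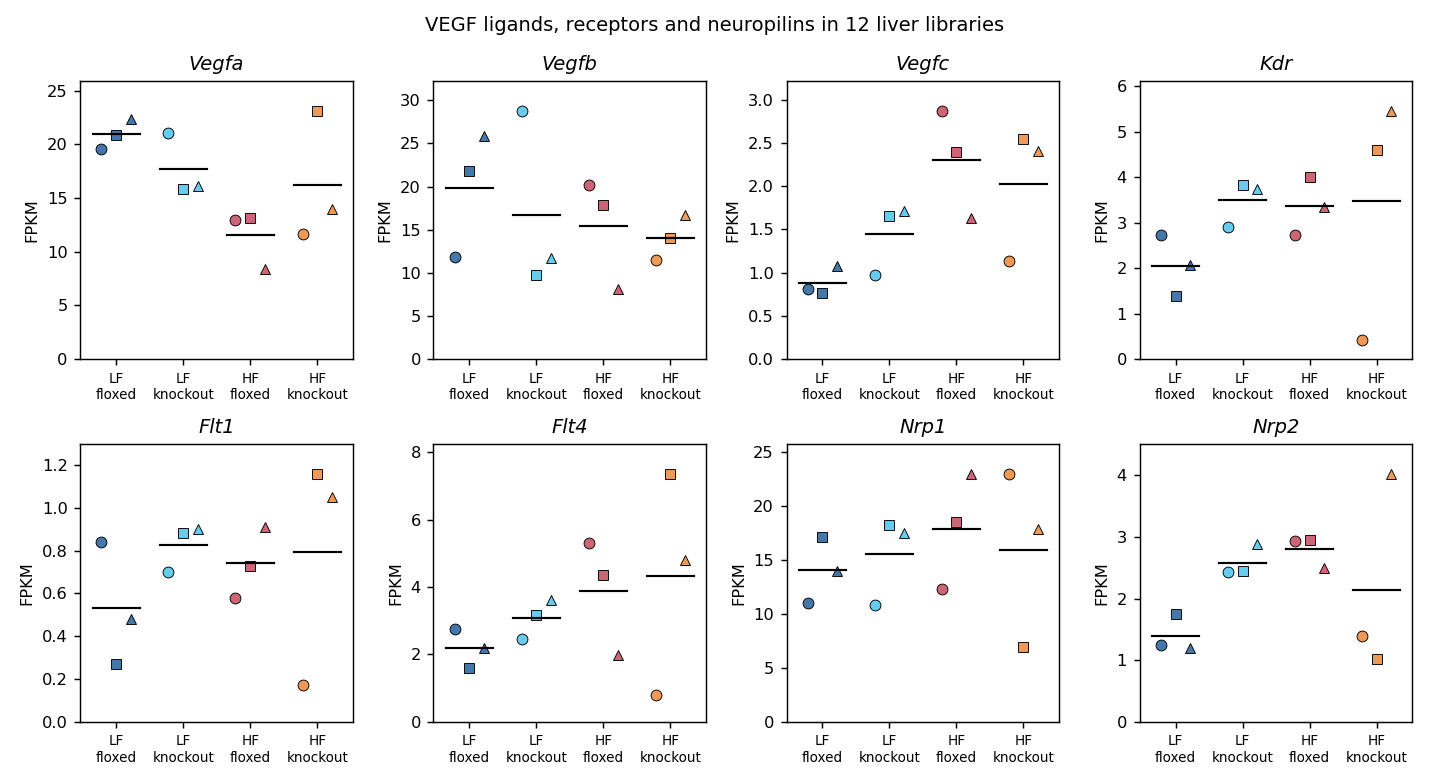
FPKM (vertical axis, from 0) of the 8 genes in each of 12 liver libraries, by diet and genotype; circles, squares and triangles are replicates 1, 2 and 3, and the line is the group mean. The 3 HF floxed libraries lie below the 3 LF floxed libraries for Vegfa and above them for Vegfc and Nrp2, and HF knockout replicate 1 holds the lowest Kdr, Flt1 and Flt4.

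Floxed livers on HF were set against those on LF to ask how the VEGF genes differ with diet when TSP1 is intact. Vegfa was at 19.6, 20.91 and 22.36 FPKM in LF floxed replicates 1 to 3 and at 12.96, 13.18 and 8.41 FPKM in HF floxed. All 3 HF floxed libraries lay below all 3 LF floxed ones, and the group means were 21 ± 1.38 and 11.5 ± 2.69 FPKM (SD, n = 3). On counts scaled between libraries the level was 2.4-fold lower on HF (log2 -1.26, SE 0.24). Before that scaling the counts were 1184, 1248 and 1384 in LF floxed and 727, 734 and 478 in HF floxed. The difference did not pass edgeR's quasi-likelihood test with Benjamini-Hochberg adjustment over 12587 genes (adjusted p = 0.175, unadjusted p = 0.000204). That comparison called 0 of the 8 members and 0.0% of all genes at a false discovery rate of 5% (1532 genes, or 12.2%, had an unadjusted p under 0.05). Vegfa did pass with DESeq2 (adjusted p = 0.000474, one of 252 genes or 2.0%), in an edgeR fit of the 6 libraries compared (0.0235, one of 82 genes or 0.679%) and with limma voom and sample weights (0.00265, one of 1510 genes or 12%). With the near-identical pairs averaged, edgeR gave an adjusted p of 0.886 and a log2 difference of -1.32. Over all alternatives the adjusted p ran from 0.000474 to 0.886 and the log2 difference from -1.34 to -0.83.

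Vegfc showed the opposite order in the same libraries. It was at 0.81, 0.76 and 1.07 FPKM in LF floxed and at 2.87, 2.39 and 1.63 FPKM in HF floxed, with no overlap between the groups. The difference was 2.14-fold on scaled counts (log2 1.09, SE 0.33, edgeR adjusted p = 0.277). It passed with voom and sample weights alone (adjusted p = 0.0254, with a range over alternatives of 0.0254 to 0.901). With the level of the clock output gene Dbp as a covariate the log2 difference was 0.79. Dbp itself was at 1.98, 90.82 and 57.85 FPKM in LF floxed and at 2.44, 2.39 and 4.97 FPKM in HF floxed, and its part in the Vegfc difference was tested only by that fit. Vegfb, at 11.88, 21.8 and 25.88 FPKM in LF floxed and 20.21, 17.9 and 8.09 in HF floxed, overlapped between diets.

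Nrp2, the neuropilin that also serves VEGF-C, was at 1.25, 1.75 and 1.2 FPKM in LF floxed and at 2.94, 2.95 and 2.5 FPKM in HF floxed. Here too the groups did not overlap, at a log2 difference of 0.71 (SE 0.36, edgeR adjusted p = 0.443). The sister gene Nrp1 overlapped between diets, at 11.05, 17.16 and 14.01 FPKM in LF floxed and 12.27, 18.48 and 22.96 FPKM in HF floxed. Kdr ran from 1.39 to 2.72 FPKM on LF and from 2.72 to 4.01 on HF, Flt1 from 0.27 to 0.84 and from 0.58 to 0.91, and Flt4 from 1.61 to 2.76 and from 1.97 to 5.32. For the kinases the ranges of the 2 diets thus met or overlapped. In FPKM, 3 of 8 members had diets that did not overlap (26.9% of the 12587 genes), 2 of them higher on HF and 1 lower, where 23.6% and 3.3% of all genes were. The scales differ here: on log2(FPKM + 1) the median gene was 0.197 higher on HF, whereas after the count scaling (trimmed mean of M values, TMM) it was 0.0. The median of the 8 members on the count scale was 0.33. In whole liver, fewer cells of a type and less RNA per cell cannot be told apart, here and below.

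In livers labelled knockout the same diets were compared. Vegfa was at 21.1, 15.84 and 16.12 FPKM in LF knockout and at 11.62, 23.13 and 14 FPKM in HF knockout. These ranges overlapped, and HF knockout replicate 2, at 23.13 FPKM, was the highest of all 12 libraries. Vegfc was at 0.97, 1.65 and 1.71 FPKM on LF and at 1.13, 2.54 and 2.41 on HF, again overlapping. Nrp2 was at 2.43, 2.44 and 2.88 FPKM on LF and at 1.39, 1.02 and 4.03 on HF, so that HF knockout replicates 1 and 2 lay below every LF knockout library and replicate 3 above. Of the 8 members 0 were called (edgeR, against 0.0% of all genes; also 0 by DESeq2, against 1.06% of all genes), 0 had an unadjusted p under 0.05 (12.2% of all genes) and 0 had groups that did not overlap (11.6%). The log2 differences ran from -0.26 to 0.49, with adjusted p between 0.565 and 0.985.

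**Figure D2:**
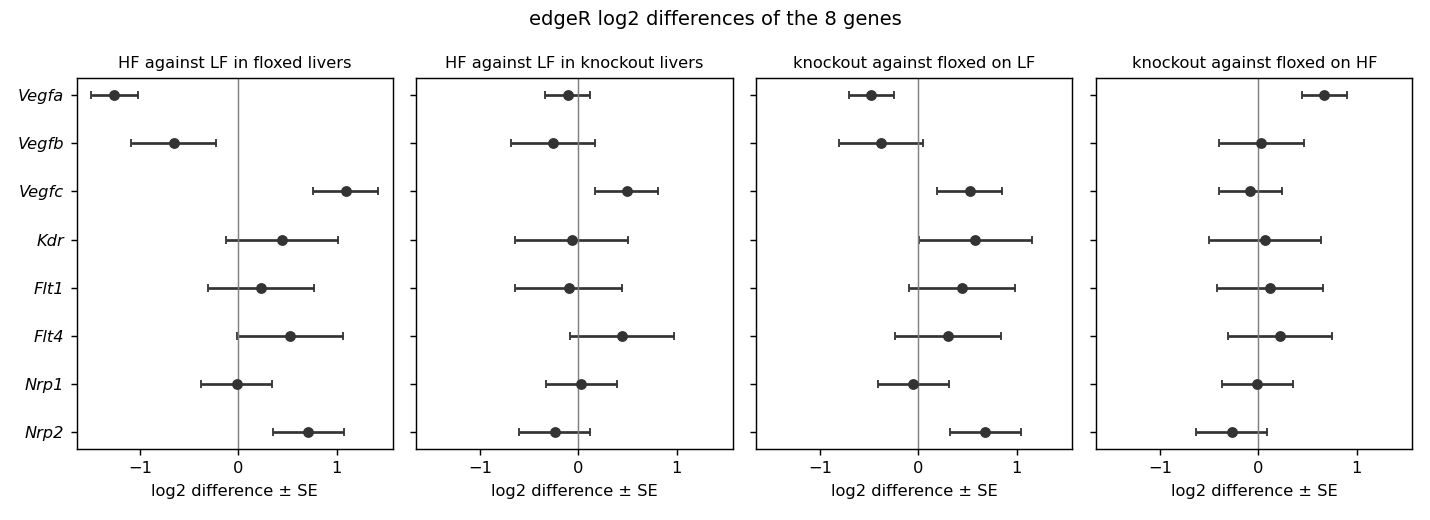
Log2 difference (horizontal axis) with its SE for the 8 genes in 4 comparisons of 3 against 3 libraries, from edgeR. Vegfa stands at -1.26 for HF against LF in floxed livers and at 0.67 for knockout against floxed on HF; Vegfc stands at 1.09 in the first comparison, and most other differences lie within about their SE of 0.

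The interaction asks whether the diet difference depends on genotype. For Vegfa the diet difference was 1.15 higher on the log2 scale in knockout than in floxed livers (SE 0.33, unadjusted p = 0.00475), which did not pass over all genes (edgeR adjusted p = 0.396; 0.0837 to 0.996 over the alternatives). It was 0.67 on log2(FPKM + 1) and 0.71 on log2(FPKM + 0.1). No member passed (0 of 8, edgeR; 1 of 8 at an unadjusted p under 0.05 and 0 by DESeq2, which called 0.85% of all genes), where edgeR called 0.0159% of all genes and 9.55% had an unadjusted p under 0.05. Without HF knockout replicate 2 the Vegfa interaction was 0.84, and without LF knockout replicate 1 it was 1.34.

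Genotypes were compared on the HF diet, the setting of the study's main question. Vegfa, at 12.96, 13.18 and 8.41 FPKM in HF floxed and at 11.62, 23.13 and 14 in HF knockout, overlapped between genotypes. Its log2 difference was 0.67 (SE 0.23, edgeR adjusted p = 0.598; 0.187 to 0.991 over the alternatives). HF knockout replicate 2 set much of the size, since without it the difference was 0.36. Mean Vegfc was 2.3 ± 0.625 FPKM in the floxed and 2.03 ± 0.779 FPKM in the knockout libraries (n = 3), and Vegfb 15.4 ± 6.44 and 14.1 ± 2.59. EdgeR called 0 of 8 members (0.0% of all genes) and DESeq2 0 (0.437% of all genes), 1 member had an unadjusted p under 0.05 (7.65% of all genes), and none had groups apart in FPKM (9.33% of all genes).

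Within HF knockout the kinases spread over a range that held all 9 HF floxed values of the 3 genes. Kdr was at 2.72, 4.01 and 3.34 FPKM in HF floxed and at 0.41, 4.59 and 5.46 FPKM in HF knockout. Flt4 was at 5.32, 4.35 and 1.97 FPKM in HF floxed and at 0.78, 7.37 and 4.8 FPKM in HF knockout. Flt1 was at 0.58, 0.73 and 0.91 FPKM in HF floxed and at 0.17, 1.16 and 1.05 FPKM in HF knockout. For all 3 kinases HF knockout replicate 1 was the lowest of the 12 libraries and replicate 2 or 3 the highest. Nrp1 ran the other way, with 23.01 FPKM in HF knockout replicate 1, the highest library, and 6.89 in replicate 2, the lowest.

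On the LF diet the comparison asks whether the genotype matters without the fat load. Nrp2 was at 1.25, 1.75 and 1.2 FPKM in LF floxed and at 2.43, 2.44 and 2.88 FPKM in LF knockout, all higher than in any LF floxed library (log2 0.68, SE 0.36, edgeR adjusted p = 0.929). Kdr was at 2.72, 1.39 and 2.06 FPKM in LF floxed and at 2.91, 3.83 and 3.74 FPKM in LF knockout, also apart (log2 0.58, SE 0.57, edgeR adjusted p = 0.929). Without LF floxed replicate 2, the library of lowest Kdr in its group, the Kdr difference was 0.35, and without LF floxed replicate 1, the highest, it was 0.86. Having 2 of 8 members apart (18.2% of all genes), 2 higher and 0 lower, compares with 16% and 2.18% of all genes. Vegfa was at 15.84 to 21.1 FPKM in LF knockout against 19.6 to 22.36 in LF floxed, and voom with sample weights called it lower (log2 -0.61, adjusted p = 0.0267, among 6.61% of all genes), while edgeR called 0 of 8 members (0.0159% of all genes), with adjusted p of 0.929 or more. At an unadjusted p under 0.05 the edgeR count was 0 of 8 (5.13% of all genes), and DESeq2 called 0 (0.27% of all genes). Comparisons that share a group of libraries, such as both that use LF floxed, are not independent, and LF knockout holds a near-identical pair.

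Kdr, Flt1 and Flt4 followed the endothelial markers from library to library. Over the 12 libraries the Pearson r of log2(FPKM + 1) was 0.94 between Kdr and Flt1, 0.83 between Kdr and Flt4 and 0.75 between Flt1 and Flt4, and 0.91, 0.71 and 0.6 over the 11 libraries without HF knockout replicate 1. These are descriptions over libraries of 4 groups that share depth and composition. Against the log2 sum of 25 endothelial markers, none of them a VEGF gene, r was 0.93 for Kdr, 0.87 for Flt4 and 0.81 for Flt1 (0.81, 0.82 and 0.66 without that library). The same measure was 0.65 for Vegfc, 0.47 for Nrp2, 0.1 for Vegfa, 0.13 for Vegfb and -0.4 for Nrp1. Without HF knockout replicate 1 it was 0.83 for Vegfc, 0.42 for Nrp2, -0.29 for Vegfa, -0.1 for Vegfb and -0.16 for Nrp1, so the sign for Vegfa and Vegfb rested on that library. On LF the endothelial sum was 102 to 162 FPKM in floxed and 161 to 175 in knockout livers, and on HF it was 154 to 209 and 65.3 to 225, and none of the 25 markers was at 0 throughout a group. Its most abundant members, Clec4g, Eng and Fcgr2b, averaged 24.7 ± 5.98, 15 ± 2.87 and 13.9 ± 4.06 FPKM in LF floxed (n = 3). The part of the endothelial markers in the kinase levels was not tested further. Per 100 FPKM of these markers, the 3 kinases held 2.91 to 4.06 FPKM in floxed and 3.76 to 4.71 in knockout livers on LF, and 4.04 to 4.56 and 2.08 to 6.73 on HF. The ranges of this ratio overlapped between diets in floxed livers. Among the ligands, Vegfc followed Flt4 (r = 0.79, and 0.85 without HF knockout replicate 1) and, less closely, Kdr (0.61 and 0.71) and Flt1 (0.52 and 0.51). Vegfa ran against Nrp1 (-0.72 and -0.68).

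**Figure D3:**
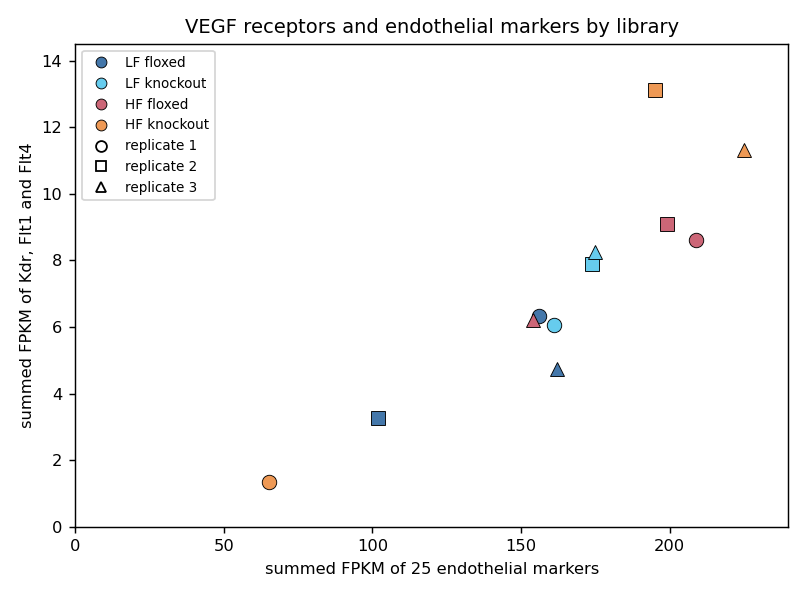
Summed FPKM of Kdr, Flt1 and Flt4 (vertical axis) against summed FPKM of 25 endothelial markers (horizontal axis), 1 point per library. HF knockout replicate 1 lies at 1.36 against 65.3 FPKM, and HF knockout replicate 2 at 13.12 against 195.

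The genes most like Kdr over the 12 libraries, among 10014 protein-coding genes of at least 1 FPKM on average, were Oit3 (r = 0.979), Tspan7 (0.968), Rock1 (0.948), Tinagl1 (0.94) and Cyp4b1 (0.94). Oit3 is itself one of the endothelial markers. For Vegfa they were Tm6sf2 (0.894), Gigyf1 (0.871), Tspyl2 (0.862), Vezt (0.859) and Gm2a (0.853). Tm6sf2 is a hepatocyte gene of lipoprotein secretion known from human fatty liver genetics. The neighbours of Flt4 and Vegfc were chosen for print after their values were seen. The 5 most like Flt4 were Plxnd1 (0.977), Stab1 (0.971), Sptbn1 (0.967), Emcn (0.967) and Arhgap23 (0.96). Among these, Plxnd1, Stab1 and Emcn are genes of endothelial cells. The 5 most like Vegfc were Anxa2 (0.979), Mcm2 (0.972), Ctr9 (0.969), the collagen gene Col1a1 (0.968) and Man2b1 (0.967).

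The files also give each gene's mean transcript length, which shifts when the estimated mix of its transcripts shifts. Vegfa has 13 listed transcripts, 3 of them assembled by BGI; Nrp1 has 8 (5 assembled), Nrp2 has 6 and Vegfb 3. The kinases and Vegfc have 1 each, so a soluble form of Flt1 cannot be told from the full receptor here. The mean Vegfa length was 3786.65, 3665.74 and 3825.43 bases in LF floxed and 3465.94, 3474.2 and 3493.79 bases in HF floxed. It was 3536.14, 3640.04 and 3618.22 in LF knockout and 3544.26, 3677.12 and 3541.95 in HF knockout. The 3 HF floxed libraries thus held the shortest estimates of all 12, and HF floxed lay wholly below LF floxed, as did 4.43% of the 7128 tested genes whose length varied. Nrp1 length ran from 3813.62 bases in HF knockout replicate 1, its highest library in FPKM, to 5298.16 in HF knockout replicate 2, its lowest. Since FPKM divides by this length, the Nrp1 counts of these libraries, 1430 and 585, differed less than the FPKM did. The transcripts behind the lengths are not resolved in these values.

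**Figure D4:**
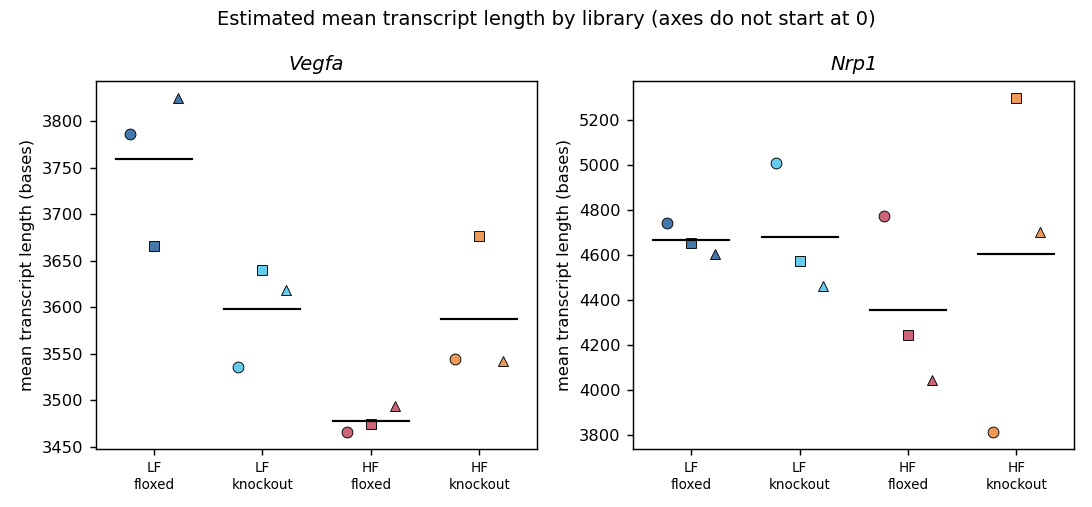
Estimated mean transcript length in bases (vertical axis, not from 0) of Vegfa and Nrp1 in 12 libraries; symbols are replicates as circles (1), squares (2) and triangles (3), and lines are group means. Vegfa lengths in HF floxed, 3465.94 to 3493.79 bases, lie below all other libraries, and Nrp1 ranges from 3813.62 to 5298.16.

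Among other ligands, Vegfd was at 0.183 ± 0.119 FPKM in floxed and 0.293 ± 0.179 in knockout livers on LF, and at 0.357 ± 0.159 and 0.113 ± 0.0569 on HF (n = 3), too low to be tested. The next list holds genes known to respond to VEGF in endothelium. Of 16 such genes 12 were tested, and in floxed livers 12 of 12 had a log2 difference above 0 on HF, as 49.9% of all genes did, with a median of 0.84. None passed edgeR over all genes; 4 had an unadjusted p under 0.05 and were higher (6.85% of all genes). In knockout livers 11 of 12 were above 0 on HF (52.9% of all genes) with a median of 0.52, and the median interaction of the list was -0.03. Rcan1, a calcineurin inhibitor, averaged 6.76 ± 1.13 FPKM on LF and 20 ± 6.54 on HF (n = 3, log2 1.24, SE 0.41, edgeR adjusted p = 0.306). Plvap, a protein of endothelial fenestrae and caveolae, averaged 25 ± 5.44 and 49 ± 17.6 FPKM (log2 0.68, adjusted p = 0.374 by edgeR), and Hlx, a homeobox factor, 1.59 ± 0.228 and 3.56 ± 1.27 FPKM (log2 0.87, adjusted p = 0.307 by edgeR). The low-abundance Notch target Hey1 averaged 0.14 ± 0.03 and 0.433 ± 0.188 FPKM (log2 1.31, edgeR adjusted p = 0.392) and the netrin receptor gene Unc5b 0.39 ± 0.0917 and 1.4 ± 0.718 FPKM (log2 1.52, edgeR adjusted p = 0.427). In these libraries the endothelial marker sum was 102 to 162 FPKM on LF and 154 to 209 on HF, and its part in these differences was not tested. Rcan1 averaged 18.2 ± 9.98 FPKM in LF knockout and 9.17 ± 3.65 in HF knockout, and its interaction was -2.15 (SE 0.58, edgeR adjusted p = 0.396). Esm1, an endothelial secreted proteoglycan, had a log2 difference of 4.56 on HF in knockout livers (SE 1.2, edgeR adjusted p = 0.344), with 0.12 to 0.17 FPKM on LF and 0.23 to 8.72 on HF. In floxed livers Esm1 averaged 0.28 FPKM on LF and 1.65 on HF (log2 2.22, SE 1.09, edgeR adjusted p = 0.431). Its interaction was 2.34 (SE 1.57, edgeR adjusted p = 0.653).

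Signalling genes below the receptors showed a median near that of all genes in floxed livers: of 33 tested, 1 had an unadjusted p under 0.05 and was higher (6.85% of all genes), 0 were lower (5.31% of all genes), and the median log2 difference was 0.04. That 1 gene was the small heat shock protein gene Hspb1, at 24 ± 9.01 FPKM on LF and 96.2 ± 34.7 on HF (log2 1.71, SE 0.58, edgeR adjusted p = 0.311). In knockout livers Hspb1 averaged 61.6 FPKM on LF and 30.9 ± 20.8 on HF, the opposite direction (log2 -0.92, SE 0.57, edgeR adjusted p = 0.545). The interaction for Hspb1 was -2.62 (SE 0.81) and did not pass over all genes (edgeR adjusted p = 0.42). The GTPase genes Cdc42 and Rac1 had log2 differences of 0.22 and 0.01 between diets in floxed livers. Of the 33 signalling genes, 6 were higher and 2 lower on HF in knockout livers at an unadjusted edgeR p under 0.05. Of all genes, 12.2% had such a p there, in either direction. The list median in knockout livers was 0.08, and edgeR called 0 of the list.

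The semaphorin and plexin genes that share the neuropilins had 9 of 12 members tested. In floxed livers 9 of 9 had a log2 difference above 0 on HF (49.9% of all genes), 3 of them higher at an unadjusted p under 0.05 (6.85% of all genes), and the median was 0.62; in knockout livers 6 of 9 were above 0, as were 52.9% of all genes, with a median of 0.18. Plxna2, a plexin of semaphorin signalling, was at 1.2 ± 0.387 FPKM on LF and 2.28 ± 0.616 on HF in floxed livers, and Plxnd1, an endothelial plexin, at 2.29 ± 0.465 and 3.32 ± 1.23 FPKM. Sema3f, a semaphorin ligand of Nrp2, was at 1.27 ± 0.251 and 1.93 ± 0.49 FPKM.

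Of the 9 genes for processing VEGF-C and VEGF-D, 8 were tested, 2 were higher on HF in floxed livers at an unadjusted p under 0.05 and 0 lower, beside 6.85% and 5.31% of all genes (median 0.27). Plg, the plasminogen gene of hepatocytes, averaged 704 ± 88.4 FPKM on LF and 665 ± 100 on HF, Ctsd, a lysosomal protease gene, 158 ± 25.5 and 250 ± 82.8, and Furin, a proprotein convertase gene, 49 ± 8.63 and 56.4 ± 11. Angiopoietin, Tie and Notch genes had 0 of 11 higher and 1 lower at that level, a share near that of all genes (median 0.35), and Tie1, an endothelial receptor gene, averaged 1.7 ± 0.487 and 2.64 ± 0.563 FPKM. The Notch target Hes1 averaged 9.5 ± 2.77 and 10.4 ± 4.13 FPKM, and Rbpj, the DNA-binding partner of Notch, 2.16 ± 0.386 and 2.48 ± 0.344.

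Genes of the hypoxia pathway, which controls Vegfa in many cells, had a median log2 difference of -0.04 on HF in floxed livers. Of 24 tested, 2 were higher and 1 lower at an unadjusted p under 0.05, beside 6.85% and 5.31% of all genes, and none passed over all genes. The glycolytic targets Ldha, Eno1 and Pgk1 had log2 differences of -0.03, 0.2 and 0.2. On HF, Pgk1 averaged 101 ± 20 FPKM in knockout and 148 ± 11.9 in floxed livers (log2 -0.44, SE 0.16, edgeR adjusted p = 0.607). Eno1 averaged 240 and 445 FPKM in the same order (log2 -0.75, SE 0.33, edgeR adjusted p = 0.632), and Ldha had a log2 difference of 0.14. In that comparison 2 of the 24 hypoxia genes were higher and 4 lower at an unadjusted edgeR p under 0.05. Of all genes, 7.65% had such a p, and 0 of the list were called (median -0.08). Of 20 factors listed for control of Vegfa, 1 was higher and 2 lower at that p in floxed livers on HF (median -0.16), beside the same shares of all genes; Cebpa, a hepatocyte transcription factor, averaged 204 ± 45.2 FPKM on LF and 157 ± 19.3 on HF, Xbp1, a factor of the unfolded protein response, 104 ± 32.9 and 98.2 ± 22.4, and Hnf4a, which sets hepatocyte identity, 98.4 ± 8.19 and 105 ± 3.25.

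Marker sums of other cells also differed between these libraries. Of all genes, 49.9% had a log2 difference above 0 on HF in floxed livers, the share to set beside the counts that follow. In floxed livers 11 of 12 hepatocyte markers had a log2 difference below 0 on HF (median -0.68), and their summed level was 55400 to 75800 FPKM on LF and 43800 to 48100 on HF. The most abundant of them, the secreted plasma protein genes Alb, Apoa1 and Ttr, had log2 differences of -0.95, -0.8 and -0.71 (edgeR adjusted p 0.413, 0.444 and 0.42). Stellate cell markers summed to 140 to 218 FPKM on LF and 209 to 347 on HF, with 15 of 15 above 0 (median 0.79), and Kupffer cell markers to 130 to 409 and 216 to 479 (8 of 13 above 0, median 0.43). The most abundant stellate markers, Dcn, Ecm1 and Colec11, had log2 differences of 0.6, 0.03 and 0.57, and the complement genes C1qa, C1qb and C1qc of Kupffer cells 0.43, 0.7 and 0.64. The neutrophil genes S100a9, S100a8 and Ngp averaged 2.27, 2.07 and 0.18 FPKM on LF and 2.26, 2.38 and 0.0533 on HF. Endothelial markers had 19 of 25 above 0 and a median of 0.35. Knockout livers differed from this: on HF 12 of 13 Kupffer cell markers were above 0 (median 1.2), where 52.9% of all genes were. At an unadjusted edgeR p under 0.05, 7 of the 13 were higher (12.2% of all genes in either direction), and 0 were called. Stellate cell markers there had 6 of 15 above 0 (median -0.03), endothelial markers 12 of 25 (-0.01) and hepatocyte markers 6 of 12 (-0.16). The HF knockout library with the highest Vegfa, replicate 2, also had the highest hepatocyte sum, 108000 FPKM. The part of these cell markers in the Vegfa and Vegfc differences was not tested. The lymphatic marker Lyve1, which sinusoidal endothelium also carries, averaged 0.493 ± 0.193 FPKM on LF and 3.19 ± 1.36 FPKM on HF in floxed livers (log2 2.38, SE 0.73, edgeR adjusted p = 0.28), while Prox1, a factor of lymphatic endothelium and hepatocytes, averaged 12.3 ± 1.13 and 9.19 ± 2.01 FPKM (log2 -0.67, SE 0.22, edgeR adjusted p = 0.301). Reln, a secreted matrix protein on that list, averaged 2.82 ± 0.0493 and 4.85 ± 0.91 FPKM. The lymphatic gene Nts was at 0 in every group but LF knockout.

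Of the TSP1 receptors, Cd36, which also takes up fatty acids, averaged 2.94 ± 1.04 FPKM in floxed and 29.5 ± 11.4 in knockout livers on LF, and 50.7 ± 22.9 and 25 ± 25.7 on HF (n = 3). Cd47, which couples TSP1 to VEGFR2 signalling, averaged 11.8 ± 1.36, 10.8 ± 0.432, 13.6 ± 2.22 and 15.6 ± 2.58 FPKM in the same order. For Cd36 no difference passed edgeR over all genes. The edgeR adjusted p was 0.175 between diets in floxed livers (log2 3.81, SE 0.7) and 0.486 between genotypes on LF (log2 3.15, SE 0.68). For the interaction of Cd36 it was 0.396 (log2 -4.12, SE 0.92).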

How the data were processed

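Total RNA of flash-frozen mouse liver (RNeasy kit, BGI libraries, per the labels' protocols) was measured by RNA-seq in 12 libraries. Each deposited file gives estimated counts (expected counts, with RSEM's column layout per the file headers), FPKM values that the authors scaled to gene length and fragments, and the other column used, mean transcript length. The submitters' processing notes give the build as mm9; the aligner, counter and annotation were not given in sources used here. Genes absent from a file (none is listed under 0.01 FPKM) were taken as 0; 1229 unnamed loci, 6.65 to 17.33% of counts, were left out.

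Rounded counts were tested with edgeR 4.0.16 in R 4.3.3 (TMM, filterByExpr, quasi-likelihood F tests, 1 mean per group, 12 libraries, 12587 genes). The standard error is the log2 difference divided by the root of F. Alternatives used DESeq2 1.42.0 and limma 3.58.1, log2(FPKM + 1) and log2(FPKM + 0.1), other filters, scalings and sets of libraries. The pipeline was tested on simulated counts. Members and lists were chosen with earlier results of these data known; Vegfa had already been singled out. Named are the 8 members and Thbs1 (log2 differences where the unadjusted p was under 0.05 or the groups did not overlap), the 3 most abundant genes of each list, VEGF response genes that meet the members' rule, and for Vegfa and Kdr the 5 genes of highest Pearson correlation. Genes named outside this rule are the neighbours of Flt4 and Vegfc and the gene Nts at 0, chosen after their values were seen. One gene that the rule names is not reported here. Other list genes were counted only, and the cholangiocyte, monocyte-derived macrophage and T and NK cell lists are given by their medians in the closing section.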

Additional observations from a re-analysis of the deposited data

How the results depend on the processing

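Of 25 alternatives (24 for the interaction), 22 kept the count of 0 VEGF genes called for HF against LF in floxed livers; DESeq2 called 1 (Vegfa), a fit of only the groups compared called 1 (Vegfa), and limma voom with sample weights called 2 (Vegfa and Vegfc). Voom also called 1 for knockout against floxed on LF, where the other 24 called 0, and every alternative for the remaining comparisons called 0. Voom gave its highest weights, 3.61 and 3.43, to the near-identical LF knockout replicates 2 and 3, and its lowest, 0.183, to HF knockout replicate 2. The cause of these changes was not tested. Leaving out each library in turn gave 0 called in each comparison. The 7 member differences followed under the alternatives (Vegfa in floxed livers, on HF and in the interaction; Vegfc and Nrp2 in floxed livers; Kdr and Nrp2 on LF) changed sign under none of them; Thbs1 passed for HF against LF in floxed livers with DESeq2 (log2 2.66, adjusted p = 0.0499). Over all genes, DESeq2 called 252, 133, 34, 55 and 107 and voom called 1510, 9, 832, 0 and 34 for HF against LF in floxed and in knockout livers, knockout against floxed on LF and on HF, and the interaction, where edgeR called 0, 0, 2, 0 and 2. For HF against LF in floxed livers edgeR called 82 with only the groups compared and 158 without HF floxed replicate 3 and HF knockout replicate 1, whose files are named in another form. With replicate number as a replicate block, 0 members were called in each comparison and the Vegfa diet difference in floxed livers was -1.28 (adjusted p = 0.244 by edgeR). For libraries of the same number, correlations of their deviations ran from -0.331 to 0.404, and 3 of 12 libraries matched best with their own number. These values show no pairing of the samples by number, but with 3 libraries per group they cannot exclude one. Counts of 18 to 117 for Flt1 and 23 to 86 for Vegfc limit what can be seen for these genes.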

Other observations

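Cell markers not described above also differed between the libraries. Cholangiocyte markers had a median log2 difference of 0.58 on HF in floxed livers and 0.8 in knockout livers, monocyte-derived macrophage markers 1.57 and 1.87, and T and NK cell markers 0.85 and 0.24, with 0 members of each list called by edgeR over all genes (1, 5 and 3 at an unadjusted p under 0.05 and higher in floxed livers, beside 6.85% of all genes). One macrophage marker was lower at that p: Fabp5, a fatty acid binding protein gene, at 4.75 to 181.73 FPKM in LF floxed and 3.31 to 5.02 in HF floxed (log2 -4.91, edgeR adjusted p = 0.283). Cd9, on the same list, averaged 26.5 FPKM on LF and 22.5 on HF in floxed livers, the cholangiocyte gene Tspan8 0.877 on LF and 2.1 on HF, and the lymphocyte genes Nkg7, Gzmb and Cd3g 0.73, 0.22 and 0.463 on LF and 1.99, 1.36 and 0.697 on HF. Tspan8 differed more in knockout livers, with means of 0.49 FPKM on LF and 93.7 on HF (log2 7.52, SE 2.16, edgeR adjusted p = 0.344), although the libraries of these 2 groups overlapped. The clock genes Nr1d1 and Tef averaged 41.1 and 14.8 FPKM on LF and 26.3 and 6.48 on HF in floxed livers, and 4 of 14 clock genes, Dbp among them, were lower there at an unadjusted p under 0.05 (5.31% of all genes). Spp1, a matrix phosphoprotein gene on the first pair of lists, was at 18.83 to 30.93 FPKM in LF knockout and at 23.54, 46.19 and 743.15 FPKM in HF knockout (log2 3.41, SE 1.01, edgeR adjusted p = 0.344), so that 1 library sets the HF mean. Vegfa made up 36.0 to 46.4% of the summed FPKM of the 3 ligands in HF floxed, 45.3 to 60.7% in LF floxed, 41.5 to 58.1% in LF knockout and 42.3 to 58.3% in HF knockout.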
